A study of Mus musculus with 24 samples.

Results

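The killer cell lectin-like receptors are a family of C-type lectin-like membrane proteins of natural killer (NK) cells and of some T cells and myeloid cells. The mouse genes were taken as every symbol that begins with Klr and a letter from a to k, leaving out the annotated pseudogenes. This gave 26 of the 55025 genes of the deposited table. Every member had a count, and all 26 passed the filter on low counts. They were 11 Ly49 genes (Klra), 5 NKR-P1 genes (Klrb), the 5 genes of the CD94 and NKG2 group (Klrc1, Klrc2, Klrc3, Klrd1 and Klrk1), and 5 others (Klre1, Klrg1, Klrg2, Klri1 and Klri2). All 26 are protein-coding genes on chromosome 6 in the GENCODE annotation of GRCm38. The symbol rule itself used no measured value, although earlier results of these data were known when the members were chosen.

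RNA was sequenced from CD45+CD4+ or CD45+CD8+ cells sorted from the spleens and the pancreatic tumors of mice that lack TCRα, the chain without which T cells cannot make the αβ receptor. Every group, the vehicle groups included, shared this deletion and the orthotopic tumor, which was grown from M8 live passage organoids. Mice received vehicle or LCL161, a small molecule that antagonizes the ubiquitin ligases cIAP1 and cIAP2, at 75 mg/kg by mouth every 3 days from day 4, and spleens and tumors were collected on day 12, after the third dose. Tissue, sorted population and treatment gave 8 groups of 3 libraries. No group carried an intact TCRα gene, and the age of the mice is not in the labels used here. The labels number the replicates but do not state that each came from a separate mouse, so p-values measure the spread between these libraries, which may be in part technical.

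As background, most of these receptors set the threshold for killing by NK cells and by T cells that share NK receptors. CD94 (Klrd1) pairs with NKG2A (Klrc1), which inhibits through its own cytoplasmic motifs, or with NKG2C (Klrc2) and NKG2E (Klrc3), which lack such motifs. These pairs bind the nonclassical MHC molecule Qa-1. NKG2D (Klrk1) forms homodimers that bind stress-induced ligands of the Raet1, H60 and Ulbp1 families and signals through DAP10 (Hcst) or DAP12 (Tyrobp). The Ly49 receptors bind MHC class I or its viral mimics, the NKR-P1 receptors bind Clr proteins (Clec2 genes), and KLRG1 binds cadherins. Some members are also used outside NK and T cells: Klra17 (Ly49Q) is well known on plasmacytoid dendritic cells, and Klra2 (Ly49B) on myeloid cells.

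The Klrc genes are shown first because several results turn on them and because their sequences overlap enough to matter for counting. The last 100 coding bases of Klrc1 (positions 633 to 732 of its 732 coding bases) are identical to positions 615 to 714 of the 714 coding bases of Klrc2, counted from the A of the start codon in GENCODE transcripts on GRCm38. That stretch reads, 5′ to 3′ on the coding strand:
Klrc1 and Klrc2 shared coding end: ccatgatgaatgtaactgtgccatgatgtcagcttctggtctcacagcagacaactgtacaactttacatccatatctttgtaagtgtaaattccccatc
Of the 50-base words in its transcripts, 38.6% of those of Klrc1, 16.3% of those of Klrc2 and 36.3% of those of Klrc3 also occur in another gene. For Klrk1, Klrd1, Klrg1, Klrb1f, Klra2 and Klra17 this share was 0. A share of 0 does not make a count certain. Of the non-zero deposited values of Klrk1, 83.3% were not whole, as for Klrc2, against 8.33% for Klrd1 and 4.17% for Klrg1. Differences among Klrc1, Klrc2 and Klrc3 are therefore uncertain, since the rule by which reads fitting several genes were divided was one of the points not given in the sources used here. Among Ly49 and NKR-P1 genes the share was 33.1% for Klra8, 31.5% for Klra9, 20.7% for Klra3, 12.3% for Klra7, 39.8% for Klra10, 27.2% for Klrb1b and 17.0% for Klrb1c, so the counts of these genes are uncertain in the same way. Members with smaller shares also had values that were not whole, at 78.9% for Klra5, 68.8% for Klra6, 50% for Klra4 and 47.8% for Klri1. The counts of Klrk1 and of these members are uncertain too.

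Promoter windows were available in RefSeq (GRCm38.p6) for 23 of the 26 members. The 250 bases before the start are printed for 5 of them. Capitals mark TGTGGT, the core of the motif bound by Runx factors, or ACCACA, the same letters on the other strand. All are written 5′ to 3′ in the direction of the gene:
Klrc1, chr6:129678974-129679223, minus strand: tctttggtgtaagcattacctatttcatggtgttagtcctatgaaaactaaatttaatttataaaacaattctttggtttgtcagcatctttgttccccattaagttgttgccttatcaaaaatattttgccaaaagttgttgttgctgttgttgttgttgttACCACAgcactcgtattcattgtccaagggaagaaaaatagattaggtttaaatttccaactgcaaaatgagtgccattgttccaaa
Klrc2, chr6:129660557-129660806, minus strand: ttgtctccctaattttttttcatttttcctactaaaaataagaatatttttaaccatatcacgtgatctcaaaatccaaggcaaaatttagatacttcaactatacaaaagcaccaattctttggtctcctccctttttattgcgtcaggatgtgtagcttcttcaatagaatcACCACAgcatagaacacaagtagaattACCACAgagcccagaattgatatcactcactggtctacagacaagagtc
Klrc3, chr6:129643289-129643538, minus strand: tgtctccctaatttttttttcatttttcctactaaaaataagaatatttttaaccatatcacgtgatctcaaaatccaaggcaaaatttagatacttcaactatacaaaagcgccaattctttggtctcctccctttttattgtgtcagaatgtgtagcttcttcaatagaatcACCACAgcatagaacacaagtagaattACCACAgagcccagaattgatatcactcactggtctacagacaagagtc
Klrk1, chr6:129623865-129624114, minus strand: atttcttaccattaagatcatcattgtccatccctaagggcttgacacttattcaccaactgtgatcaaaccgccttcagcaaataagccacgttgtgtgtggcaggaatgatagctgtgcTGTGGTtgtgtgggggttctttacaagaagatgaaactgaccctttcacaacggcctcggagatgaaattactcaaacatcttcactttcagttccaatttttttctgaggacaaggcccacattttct
Klrb1f, chr6:129045651-129045900, plus strand: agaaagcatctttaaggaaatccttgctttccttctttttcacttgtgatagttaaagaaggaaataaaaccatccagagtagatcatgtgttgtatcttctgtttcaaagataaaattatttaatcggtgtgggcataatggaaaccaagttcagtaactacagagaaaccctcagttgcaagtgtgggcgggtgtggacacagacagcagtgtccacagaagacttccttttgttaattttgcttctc
The Klrc2 and Klrc3 windows were 95.6% identical base by base and each held the motif at 2 places. The windows of Klrc1 and Klrk1 each held it at 1 place, and that of Klrb1f had no match. The window of Klri1, the other member called with LCL161, is not printed and had no match either. Some members had 2 windows. Over the family, 9 of 28 windows had a match, in 8 of 23 genes, against 14% of all 32851 promoter windows of the same length. Klra1, Klrb1a, Klrb1c and Klre1 were the other members with it. No member window matched GGTGTGA (T-box; 3.33% of all windows). Klra2, Klra7 and Klra10 matched TTCNNNGAA (STAT; 7.02%). All motifs were searched on both strands, no match of one overlapped a match of another in the printed windows, and a match is a description of letters only.

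Library totals ran from 15455728 to 25145426 expected counts. A count of 3 was worth 0.120 to 0.196 CPM (counts scaled to a common library total) in a library, and levels at or under this are near the limit of detection. CPM below are on library totals scaled by the trimmed mean of M-values, values in sets of 3 are replicates 1, 2 and 3, and means are ± SD over 3 libraries. The gates were as labelled for their sort genes: Cd4 was 687 to 1429 CPM in CD4 libraries and 7.06 to 31.7 in CD8 libraries, and Cd8a was 0.0549 to 3.98 CPM in CD4 libraries and 564 to 1158 in CD8 libraries. Genes of the CD3 complex and its partners Cd5 and Cd6 summed to 1571 ± 114 CPM in the group where they were lowest, spleen CD8 vehicle. Other cells were present by their markers: 6 genes of type 1 conventional dendritic cells summed to 1603 ± 83 CPM in spleen CD8 vehicle, 7 genes of plasmacytoid dendritic cells to 1749 ± 1014 in spleen CD4 vehicle, and 9 macrophage genes to 1821 ± 947 in tumor CD4 vehicle. Replicate 3 of spleen CD4 vehicle stood apart for several members. Because these are bulk libraries, fewer cells of a type and less RNA per cell cannot be told apart.

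Summed over the family, the receptors were most abundant in CD8 libraries from tumors. The sum was 2608, 1362 and 2117 CPM in tumor CD8 vehicle and 1866, 1670.1 and 2293 in tumor CD8 LCL161. In spleen CD8 it was 533, 852 and 946 with vehicle and 1331, 1233 and 1962 with LCL161, without overlap. In tumor CD4 the sum was 496, 391 and 307 with vehicle and 477, 618 and 457 with LCL161, which overlapped. The lowest sums were in spleen CD4, at 254, 238 and 628 with vehicle and 94.3, 182 and 249.5 with LCL161. The vehicle CD8 groups thus did not overlap the CD4 groups of the same tissue in tumors, whereas in spleen 1 CD4 library, replicate 3, lay within the CD8 range.

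In tumor CD8 vehicle libraries Klrc1 and Klrk1 averaged 31.6% and 24.2% of the family's CPM. Per kilobase of exon, Klrc1 was highest in tumor CD8 vehicle at 321 ± 90.1 CPM per kb, followed by Klrd1 at 203 ± 34, Klrg1 at 107 ± 57.8 and Klrk1 at 68.8 ± 23.5. The length used was that of the exons of all annotated transcripts of a gene together. It was 7183 bases for Klrk1 and 5812 for Klrc2, against 1281 for Klrd1 and 1414 for Klrg1, so the places of Klrk1 and Klrc2 depend on this choice. Klrd1 at 110.4 ± 21 and Klrc1 at 85.1 ± 35.5 CPM per kb led in spleen CD8 vehicle, and their ranges overlapped. In tumor CD4 vehicle the same genes stood at 45.7 ± 16.7 and 41.9 ± 18.8 CPM per kb, again within their spread. Spleen CD4 vehicle had a different order, with Klrg1 at 53.1 ± 74.7, Klra17 at 38.1 ± 24.2 and Klrd1 at 35 ± 10.6 CPM per kb, and the level of Klrg1 rested on replicate 3. The 5 members with the lowest maxima over the 24 libraries were Klrb1, Klra10, Klrg2, Klra6 and Klrc3, at 0 to 1.27, 0 to 1.5, 0 to 4.05, 0 to 5.09 and 0.122 to 5.67 CPM.

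**Figure D1:**
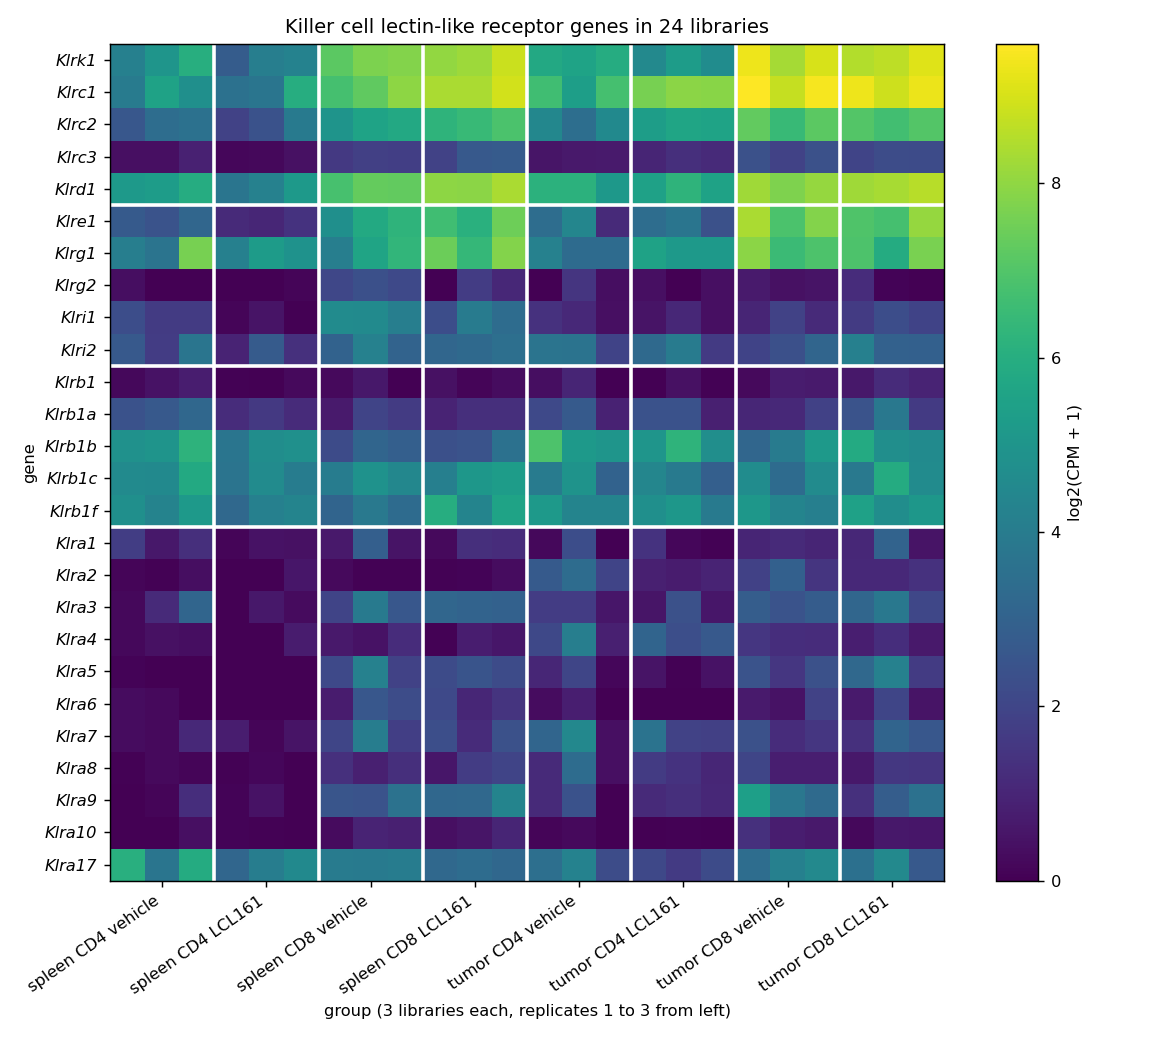
Levels of the 26 members (rows, grouped by subfamily) in the 24 libraries (columns, grouped by tissue, sorted population and treatment), as colour on a log scale of CPM. Klrc1, Klrk1 and Klrd1 were high throughout the CD8 libraries, most of all from tumors, while most Ly49 genes were under 10 CPM.

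The comparison of CD8 with CD4 libraries under vehicle asked how the receptors divide between the sorted populations. In spleen 11 of 26 members passed the threshold of an adjusted p under 0.05, 9 higher and 2 lower in CD8, where 11.4% of all 20174 genes passed (5.32% higher and 6.09% lower). In tumors 7 of 26 passed, all higher in CD8, where 4.07% of all genes passed (1.7% higher and 2.37% lower). All 5 genes of the CD94 and NKG2 group were higher in CD8 cells in both tissues. The median member difference on the log2 scale was 1.97 in spleen and 0.65 in tumors, against -0.03 in each over all genes. The tumor median was 0.22 without tumor CD4 replicate 3 and 1.92 without tumor CD4 replicate 2. DESeq2 called 16 members in spleen, where 14.7% of the genes to which it gave an adjusted p passed. Groups did not overlap for 14 members higher and 3 lower in spleen, where this held for 18.5% and 17.9% of all genes, and for 10 members higher and 0 lower in tumors, where it held for 12% and 13.9%.

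Klrk1, which encodes NKG2D, had the smallest adjusted p of the family in tumors. It was 17.1, 30.8 and 64.6 CPM in spleen CD4 and 146, 210.0 and 223 in spleen CD8, a log2 difference of 2.36 ± 0.44 (± SE, adjusted p = 0.0018). In tumors it was 54, 46.2 and 60.8 CPM in CD4 and 650.4, 315 and 516 in CD8, a difference of 3.20 ± 0.45 (adjusted p = 0.00081), or 9.2-fold. No CD4 library reached the lowest CD8 library in either tissue.

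The genes of the CD94 heterodimers followed the same order. Klrc1, the inhibitory chain NKG2A, was 14.9, 45.2 and 26.1 CPM in spleen CD4 and 108, 152 and 246 in spleen CD8, with a log2 difference of 2.55 ± 0.57 (adjusted p = 0.0064). In tumors it was 100.5, 40.2 and 108 CPM in CD4 and 775, 435 and 702 in CD8, a log2 difference of 2.94 ± 0.57 (adjusted p = 0.0063). Tumor CD4 replicate 2 was the lowest of its group for Klrc1, as tumor CD8 replicate 2 was of its own. Klrd1, the shared partner CD94, was 35.4, 38.7 and 60.5 CPM in spleen CD4, 111, 159.7 and 154 in spleen CD8, 71.4, 70.3 and 33.9 in tumor CD4 and 298, 212 and 271 in tumor CD8. Its log2 difference was 1.66 ± 0.35 in spleen (adjusted p = 0.0042) and 2.15 ± 0.35 in tumors (adjusted p = 0.002). The groups were separate in both tissues.

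Klrc2, the chain NKG2C, was 5.03, 9.91 and 10.9 CPM in spleen CD4, 30.2, 46.1 and 55 in spleen CD8, 20.6, 10.2 and 22.4 in tumor CD4 and 156, 88.4 and 144 in tumor CD8. The log2 differences were 2.35 ± 0.46 (adjusted p = 0.0026) and 2.87 ± 0.46 (adjusted p = 0.0019). Klrc3, the chain NKG2E, was 0.307, 0.322 and 0.844 CPM in spleen CD4, 2.02, 2.55 and 2.42 in spleen CD8, 0.442, 0.592 and 0.628 in tumor CD4 and 4.18, 2.67 and 4.27 in tumor CD8, with log2 differences of 2.28 ± 0.40 (adjusted p = 0.0011) and 2.71 ± 0.40 (adjusted p = 0.00097). Both genes moved with Klrc1, with which they share sequence, as the coding end printed above shows for Klrc2. Under vehicle the ratio of Klrc2 to Klrc1 was 0.201 to 0.206 in tumor CD8 and 0.205 to 0.253 in tumor CD4 libraries. In spleen it was 0.224 to 0.303 in CD8 and 0.219 to 0.416 in CD4. Counts of members take Klrc1, Klrc2 and Klrc3 as separate genes, and the part of shared reads was not tested.

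Among the other members, Klre1, which forms heterodimers with KLRI1 or KLRI2, passed in both tissues. It was 5.62, 4.55 and 7.97 CPM in spleen CD4 and 26.3, 55.4 and 74.5 in spleen CD8, and 9.88, 20.1 and 1.2 in tumor CD4 and 334, 115 and 223 in tumor CD8. The log2 differences were 3.11 ± 0.71 (adjusted p = 0.0073) and 4.44 ± 0.74 (adjusted p = 0.0021), and no libraries overlapped. In a fit of the 6 tumor libraries alone the Klre1 call was lost (4.45, adjusted p = 0.0895). Klrg2 was 0.291, 0 and 0 CPM in spleen CD4, mostly without a count, and 3.08, 4.05 and 3.39 in spleen CD8, separate but not past the threshold (adjusted p = 0.054; 0.0332 with DESeq2). The partner gene of Klre1, Klri1, was 3.85, 2.15 and 2.22 CPM in spleen CD4 and 23.5, 23 and 16.2 in spleen CD8, a log2 difference of 2.92 ± 0.67 (adjusted p = 0.0075). In tumors Klri1 was 1.61, 1.17 and 0.301 CPM in CD4 and 0.981, 2.72 and 1.22 in CD8, near 1 CPM in both (log2 difference 0.67 ± 0.67, adjusted p = 0.62). The dendritic cell markers moved with Klri1 in spleen: all 6 were higher in CD8 libraries, 1546 to 1698 CPM against 51 to 138 in CD4, none of them at 0, and their part in this result was not tested.

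Klrg1, an inhibitory receptor for cadherins, was 17.8, 9.14 and 9.3 CPM in tumor CD4 and 245, 91.4 and 119 in tumor CD8, a log2 difference of 3.65 ± 0.88 (adjusted p = 0.023). In spleen it was 16.4, 11.9 and 197 CPM in CD4 and 16.2, 47.3 and 79.8 in CD8 (log2 difference -0.65 ± 0.79, adjusted p = 0.68). A single CD4 library, replicate 3, was above every spleen CD8 vehicle library. The tumor call was lost without tumor CD4 replicate 1, 2 or 3 or tumor CD8 replicate 1 (adjusted p 0.0514 to 0.109).

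NKR-P1 genes went the other way in spleen. Klrb1b, the inhibitory receptor for Clr-b, was 28.3, 30.1 and 73.6 CPM in spleen CD4 and 3.53, 7.75 and 6.46 in spleen CD8, a log2 difference of -2.90 ± 0.69 (adjusted p = 0.0096). Klrb1f, a receptor for Clr-g, was 26.3, 18.6 and 35.2 CPM in CD4 and 7.46, 13.6 and 9.36 in CD8, a difference of -1.40 ± 0.45 (adjusted p = 0.049). Both were separate between gates. In tumors Klrb1b was 120.0, 35.7 and 31.4 CPM in CD4 and 8.01, 14.7 and 34.2 in CD8, where replicate 3 of CD8 lay among the CD4 libraries. Klrb1f was 36, 19.4 and 18.9 CPM in tumor CD4 and 32.6, 18.9 and 16.5 in tumor CD8, which overlapped. The Klrb1b call in spleen was lost without spleen CD8 replicate 1 (adjusted p = 0.0599), and the Klrb1f call was lost in each fit that left out a library other than spleen CD4 replicate 2 (0.0626 to 0.194), with another scaling (0.0525), with no low-count filter (0.0818) and with a replicate block (0.0658).

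Klrb1c, whose product is the NK1.1 antigen, was shared by both gates at a modest level. It was 23, 22.5 and 56.2 CPM in spleen CD4, 15.2, 29.1 and 21 in spleen CD8, 14.8, 29.5 and 7.07 in tumor CD4 and 24.3, 9.26 and 23.5 in tumor CD8. These ranges overlapped in each tissue (log2 differences -0.64 ± 0.59 and 0.16 ± 0.59, adjusted p = 0.56 and 0.92). Ncr1, which encodes the NK receptor NKp46, was 23.4, 15.3 and 63.2 CPM in spleen CD4 and 0.393 to 7.18 over all CD8 libraries, so the CD8 libraries combined high NKG2 genes with low Ncr1. The 8 NK markers outside the family summed to 28.5 to 203 CPM in spleen CD4 and 89.7 to 154 in spleen CD8, and Khdc1a was at 0 in both groups.

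Sums of markers of other lymphocytes were also higher in tumor CD8 libraries, although the NK markers did not move as a set. The NK markers summed to 112 to 246 CPM in tumor CD8 and 14 to 90.0 in tumor CD4, without overlap. Eomes made up most of the CD8 sum and was higher there. Ncr1 passed the threshold in the opposite direction and Cma1 was lower too. Khdc1a and Cma1 were at 0 in at least 1 CD8 library. The 7 γδ T cell markers summed to 2930.2 to 3390.4 CPM in tumor CD8 and 213 to 2628 in tumor CD4, also without overlap, with Sox13 and Cd163l1 past the threshold and Sox13 at 0 in 1 CD4 library. In spleen the γδ sums were 1363 to 1499 CPM in CD8 and 298 to 1633 in CD4, which overlapped, with the same pair of genes past the threshold and none at 0. The part of these cells in the results between gates was not tested.

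Among the 11 Ly49 genes, 2 passed in spleen, both higher in CD8 cells, and 0 in tumors (3 at an unadjusted p under 0.05, as were 19.3% of all genes). Klra5 (Ly49E) was 0.0567, 0 and 0 CPM in spleen CD4, a total of 1.17 counts, and 3.29, 17.6 and 2.75 in spleen CD8 (adjusted p = 0.002). The ratio of summed counts, scaled for library size, was 413 with a counting interval from 86.3 to 19112. Klra6 (Ly49F) was 0.242, 0.198 and 0 CPM in spleen CD4 and 0.64, 5.09 and 3.75 in spleen CD8, with a log2 difference of 4.35 ± 1.29 (adjusted p = 0.042), and this call was lost in 5 of 6 fits that left out a library (0.0944 to 0.116), with no low-count filter (0.0599) and with a replicate block (0.0666). Replicate 2 was the highest spleen CD8 library for both genes.

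Klra7, Klra8 and Klra9 were just outside the threshold in spleen by edgeR, with adjusted p of 0.051, 0.062 and 0.054, and past it by DESeq2 (0.00419, 0.0148 and 0.0371). Klra9 (Ly49I) was 0, 0.099 and 1.38 CPM in spleen CD4 and 4.72, 4.46 and 11.4 in spleen CD8, and 1.2, 4.4 and 0.0201 in tumor CD4 and 41.5, 13.1 and 8.9 in tumor CD8, without overlap in either tissue. Klra1 (Ly49A) was 2.35, 0.544 and 1.45 CPM in spleen CD4, 0.558, 6.45 and 0.412 in spleen CD8, 0.169, 3.81 and 0.0201 in tumor CD4 and 0.992, 1.18 and 1.0 in tumor CD8. Klra3 (Ly49C) was 0.145, 1.24 and 7.86, 2.95, 14.3 and 5.06, 2.24, 2.25 and 0.501 and 6.04, 4.46 and 6.0 CPM in the same groups. Neither Klra1 nor Klra3 differed past the threshold between gates (adjusted p from 0.37 to 0.93 over both genes and tissues).

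The division between gates was also measured in the LCL161 libraries. In spleen 15 members were higher in CD8 libraries and 0 lower, where 17.4% of all genes passed and 7.95% were higher. In tumors 5 were higher and 0 lower, where 2.87% passed and 1.43% were higher. Klrk1 differed by 3.96 ± 0.47 on the log2 scale in tumors (adjusted p = 0.00015), while Klrc1 differed by 1.37 ± 0.54 (adjusted p = 0.2). Klrb1f in spleen was higher in CD8 libraries by 1.51 ± 0.44 (adjusted p = 0.025), the opposite of its sign under vehicle.

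**Figure D2:**
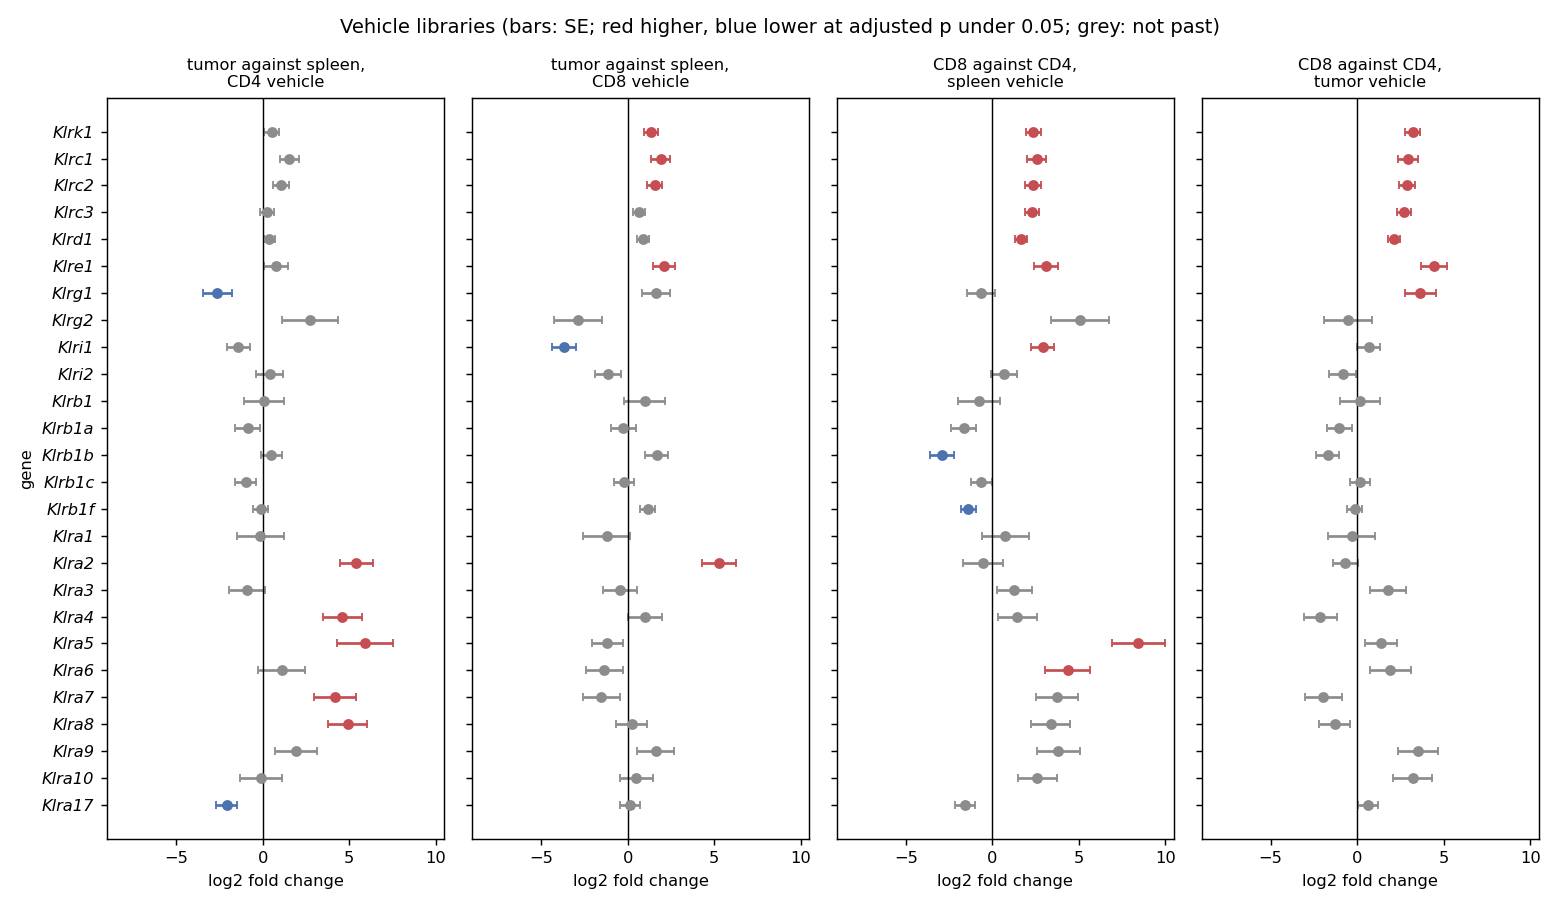
Log2 fold changes (points) with SE (bars) of the 26 members for CD8 against CD4 cells and for tumor against spleen, in vehicle libraries. The bars are narrower than 95% intervals. The 5 CD94 and NKG2 genes lie above 0 in both gate comparisons, and Klra2 is above 5 in both tissue comparisons.

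The comparison of tumors with spleens under vehicle shares the same libraries as the comparison of gates. In CD4 cells 7 of 26 members passed, 5 higher and 2 lower in tumors, where 16.4% of all genes passed (9.61% higher and 6.78% lower). In CD8 cells 6 passed, 5 higher and 1 lower, where 14.8% of all genes passed (7.95% and 6.86%). The members were of different kinds. In CD4 libraries 6 of the 7 were Ly49 genes, whereas in CD8 libraries 3 of the 6 were CD94 and NKG2 genes and only Klra2 was a Ly49 gene. In a fit of the 6 CD4 libraries alone only Klra2 passed of those 7, and Klra5 and Klra8 did not pass its low-count filter.

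In CD8 cells, tumor libraries had more of the NKG2 genes than spleen libraries, from the values given above. Klrc1 was 3.77-fold higher (log2 difference 1.92 ± 0.55, adjusted p = 0.024). Klrk1 was 2.56-fold higher (1.36 ± 0.42, adjusted p = 0.037), and Klrc2 differed by 1.56 ± 0.44 (adjusted p = 0.02). The partner Klrd1 differed by 0.88 ± 0.34 and missed the threshold (adjusted p = 0.09), although its groups were also separate. Klre1 differed by 2.11 ± 0.66 (adjusted p = 0.037). These 4 calls of Klrc1, Klrc2, Klrk1 and Klre1 depended on single libraries: each was lost without spleen CD8 replicate 1 or 2 or tumor CD8 replicate 1 or 3, and those of Klrk1 and Klre1 also without spleen CD8 replicate 3 (adjusted p 0.0585 to 0.161). With no low-count filter Klrk1 (0.0659) and Klre1 (0.0721) were lost, and Klre1 also with a replicate block (0.051). Under LCL161 none of them passed in this comparison (log2 difference of Klrc1 0.59 ± 0.54, adjusted p = 0.55; of Klrk1 0.39 ± 0.42, adjusted p = 0.63).

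T cell markers were higher in the same tumor CD8 libraries. The 7 γδ T cell markers summed to 2930.2 to 3390.4 CPM in tumor CD8 against 1363 to 1499 in spleen CD8, with 0 past the threshold. The 6 genes of the CD3 complex and its partners summed to 2842 to 3295 CPM against 1441 to 1657, with Cd3d, Cd3e, Cd3g and Cd6 past the threshold. No gene of either list was at 0, and neither sum overlapped between tissues. The part of these shifts in the higher NKG2 genes and Klre1 was not tested.

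Klri1 was the exception in direction. It was 20.9 ± 4.05 CPM in spleen CD8 and 1.64 ± 0.945 in tumor CD8, lower by 12.6-fold (log2 difference -3.66 ± 0.69, adjusted p = 0.0014), and it kept its call whichever single library was left out. Klre1, the gene of its partner chain, was higher in the same libraries. All 6 markers of type 1 conventional dendritic cells were also lower in tumor CD8 libraries, 62.1 to 137 CPM against 1546 to 1698 in spleen, and their part in the Klri1 result was not tested.

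Klra2 (Ly49B) was the only member that passed in both populations and kept its call whichever single library was left out in both. It was 0.0969, 0.0495 and 0.264 CPM in spleen CD4 and 5.55, 9.49 and 2.89 in tumor CD4, with a ratio of summed counts of 42.8 and a counting interval from 21.5 to 99.8 (log2 difference 5.41 ± 0.96, adjusted p = 0.001). It was 0.179, 0.044 and 0.0485 CPM in spleen CD8 and 2.59, 6.79 and 1.79 in tumor CD8, a ratio of 41.7 from 18.9 to 115 (5.27 ± 0.98, adjusted p = 0.0014). Most spleen libraries were at the limit of detection, and every tumor library was above every spleen library. In both populations 8 of 9 macrophage markers were higher in tumors. They summed to 1452, 2897 and 1114 CPM in tumor CD4 and 618, 942 and 826 in tumor CD8, against 77.7 to 235 and 128 to 167 in spleen, with none at 0. Their part in the Klra2 result was not tested. Replicate 2 of tumor CD4 was the highest of its group for both Klra2 and the macrophage sum.

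The other Ly49 genes higher in tumor CD4 libraries rested on that same replicate 2. Klra4, the activating receptor Ly49D, was 0.145, 0.346 and 0.29 CPM in spleen and 3.21, 16.1 and 0.802 in tumors (log2 difference 4.61 ± 1.13, adjusted p = 0.0097). Klra7 (Ly49G) was 0.242, 0.198 and 1.13 CPM in spleen and 7.73, 21.2 and 0.321 in tumors (4.19 ± 1.22, adjusted p = 0.025), which overlapped. Klra8, the activating receptor Ly49H, was 0.0378, 0.198 and 0.0881 CPM in spleen and 1.19, 9.57 and 0.306 in tumors (4.90 ± 1.15, adjusted p = 0.0071). Klra5 was 1.06, 2.97 and 0.12 CPM in tumors, a ratio of summed counts to spleen of 65.3 with an interval from 13.2 to 3034 (adjusted p = 0.019). Without tumor CD4 replicate 2 these 4 calls were all lost (adjusted p 0.0905 for Klra4, and 0.0938 for Klra8). Klra4, Klra5 and Klra7 were also lost without spleen CD4 replicate 1, Klra5 and Klra7 without replicate 2, and Klra5 without replicate 3 (0.0535 to 0.138 over all these fits). Ncr1 was 17.6, 37.1 and 2.65 CPM in the 3 tumor CD4 libraries, highest in the same replicate 2, and the part of NK cells in these results was not tested.

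The members lower in tumor CD4 libraries were Klra17 and Klrg1. Klra17 (Ly49Q) was 64.7, 12.3 and 59.1 CPM in spleen and 10.4, 17.9 and 3.69 in tumors, a log2 difference of -2.09 ± 0.60 (adjusted p = 0.022), and replicate 2 of each tissue crossed. Of 7 plasmacytoid dendritic cell markers, 4 were lower in tumors too, with sums of 299 to 926 CPM against 658 to 2663 in spleen and none at 0, and their part was not tested. The Klra17 call was lost without spleen or tumor CD4 replicate 1 or 3 (0.0593 to 0.091). Klrg1 had a log2 difference of -2.63 ± 0.85 (adjusted p = 0.039), which rested on spleen CD4 replicate 3: without it the value was -0.26 (adjusted p = 0.821), and the call was also lost without each of the 3 tumor CD4 libraries (0.057 or more).

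In the LCL161 libraries, 9 members differed between tumor and spleen CD4 cells, where 21.3% of all genes passed. Klrc1, Klrc2, Klrc3, Klrd1 and Klre1 joined Klra4, Klra7, Klra8 and Klra17 there, with a log2 difference of 2.98 ± 0.58 for Klrc1 (adjusted p = 0.0015) and 1.33 ± 0.35 for Klrd1 (adjusted p = 0.01). Klra2 (2.28 ± 0.91, adjusted p = 0.083), Klra5 (adjusted p = 0.091) and Klrg1 (adjusted p = 0.72) passed in CD4 cells under vehicle but not with LCL161. In CD8 cells 2 passed, where 8.77% did and 4.92% were higher, Klra2 (3.40 ± 0.96, adjusted p = 0.035) and Klrb1b (2.46 ± 0.68, adjusted p = 0.031), both higher in tumors.

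LCL161 was then compared with vehicle in each of the 4 sorted populations. In spleen CD8 8.28% of all genes passed the threshold, against 0.431% in spleen CD4, 0.322% in tumor CD4 and 0.248% in tumor CD8. Of the 26 members, 1 passed in spleen CD4 (Klri1, lower), 1 in spleen CD8 (Klrb1f, higher) and 0 in either tumor population. By direction, 25 of 26 were lower with LCL161 in spleen CD4, 13 in spleen CD8, 21 in tumor CD4 and 13 in tumor CD8, where 51.8%, 54.3%, 48.1% and 50.3% of all genes were higher. The number of lower members moved when 1 library was left out: without tumor CD4 vehicle replicate 2, 16 of 26 were higher in tumor CD4 (median 0.36 on the log2 scale, against -0.53 with all libraries), and without spleen CD8 vehicle replicate 2, 20 of 26 were higher in spleen CD8.

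**Figure D3:**
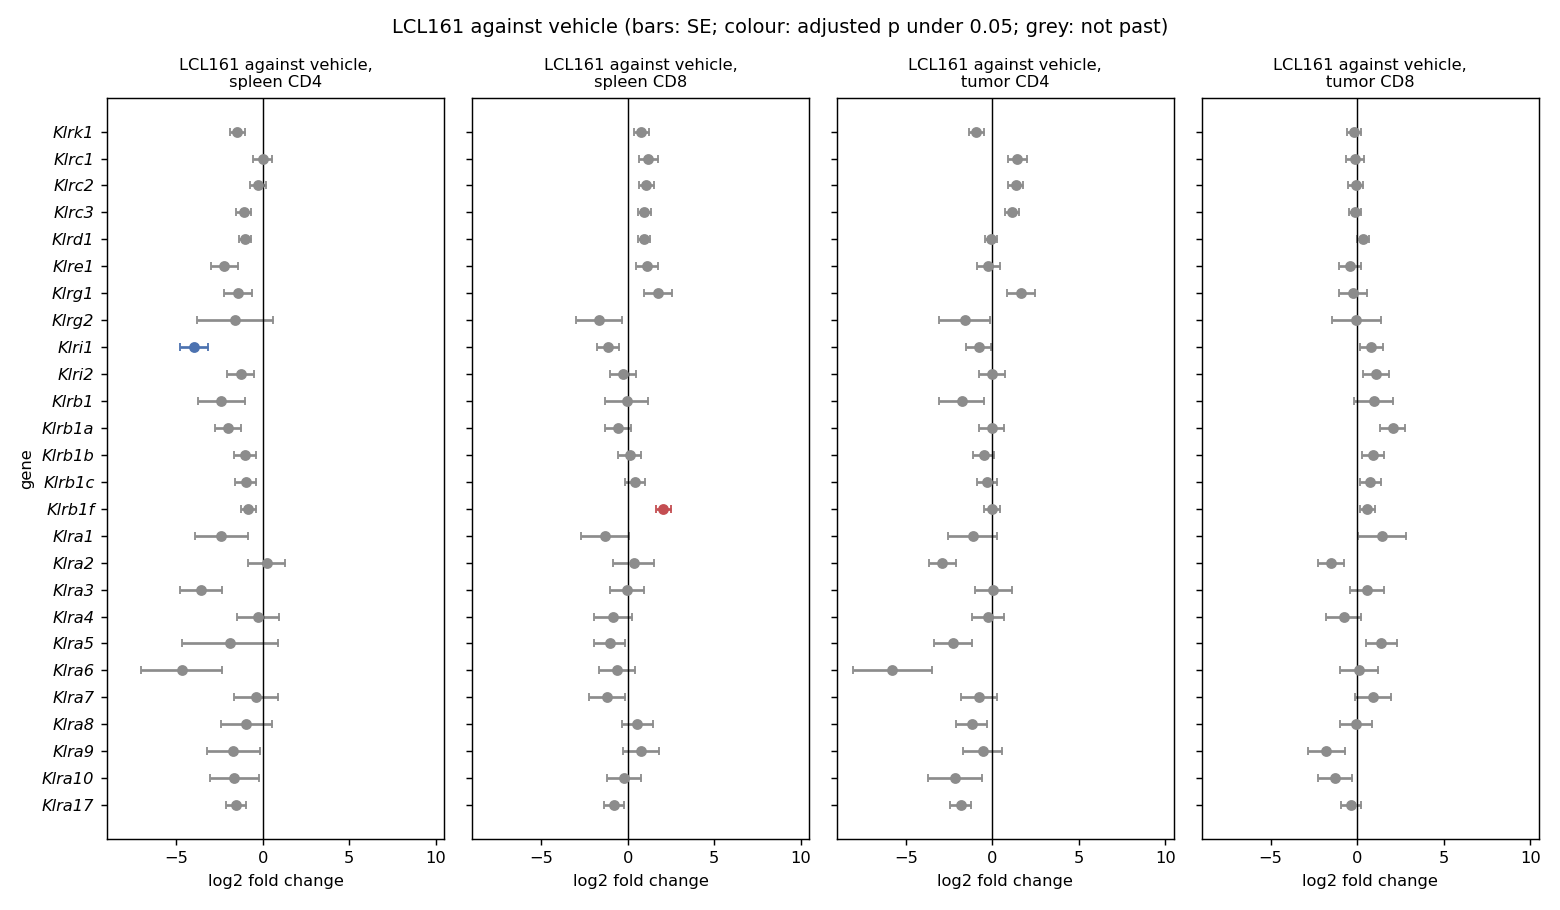
Log2 fold changes (points) with SE (bars) of the 26 members for LCL161 against vehicle in the 4 sorted populations. The bars are narrower than 95% intervals. In spleen CD4 cells 25 of 26 points lie below 0. Points in red or blue mark the calls of Klrb1f (spleen CD8) and Klri1 (spleen CD4), and the rest are grey.

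In spleen CD8 cells Klrb1f rose. It was 7.46, 13.6 and 9.36 CPM with vehicle and 62, 19.1 and 46.5 with LCL161, 4.2-fold higher (log2 difference 2.07 ± 0.45, 95% interval 1.12 to 3.02, adjusted p = 0.01), and 4.1% of all genes were called higher here. The lowest LCL161 library, replicate 2, was above the highest vehicle library. The call was lost without vehicle replicate 1 or 3 or LCL161 replicate 3 (adjusted p 0.0584 to 0.0655). No other NKR-P1 gene passed. Klrb1b was 4.01, 4.48 and 11 CPM with LCL161 (log2 difference 0.13 ± 0.66, adjusted p = 0.93) and Klrb1c was 16.6, 33 and 38.3 (0.43 ± 0.59, adjusted p = 0.69).

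The NKG2 genes were higher in spleen CD8 LCL161 libraries without passing the threshold in the main fit. Klrd1 and Klrc2 each passed it in 1 of 13 alternative settings, and Klrc3 only without LCL161 replicate 1 (edgeR adjusted p = 0.0498). Klrc1 was 334, 334 and 493 CPM with LCL161 against 169 ± 70.4 with vehicle, a log2 difference of 1.20 ± 0.54 (adjusted p = 0.17). Klrd1 was 249.9, 242 and 329.6 CPM against 141 ± 26.9 (0.95 ± 0.34, adjusted p = 0.087). Klrk1 was 263, 293 and 449.5 CPM against 193 ± 41.5 (0.80 ± 0.42, adjusted p = 0.25). All 5 CD94 and NKG2 genes were separate between treatments, with every LCL161 library higher. With Klrb1f and Klrg1, this was so for 7 members, where 21.1% of all genes were separate and higher.

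Klrc2 was 75.6, 87 and 116 CPM with LCL161 in these cells (log2 difference 1.09 ± 0.43, adjusted p = 0.12), and Klrc3 was 2.67, 5.37 and 5.67 (0.97 ± 0.36, adjusted p = 0.099). Klrg1 was 174, 82.7 and 224 CPM against 47.8 ± 31.8 with vehicle (1.75 ± 0.81, adjusted p = 0.19). Klre1 was 99.5, 67.5 and 176 CPM and overlapped vehicle at replicate 2 (1.14 ± 0.64, adjusted p = 0.29). Separate and lower were 3 members, where 17.8% of all genes were. Klra17 was 15.1, 14.6 and 15.2 CPM with vehicle and 8.37, 9.64 and 8.29 with LCL161 (-0.77 ± 0.58, adjusted p = 0.43), Klri1 was 3.85, 14.9 and 9.64 CPM with LCL161 (-1.14 ± 0.62, adjusted p = 0.26), and Klrg2 differed by -1.64 ± 1.32 (adjusted p = 0.46).

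The cell type markers of spleen CD8 libraries moved in the same comparison. The 6 dendritic cell markers were all separate and lower with LCL161, at 128 to 538 CPM against 1546 to 1698, with Xcr1, Wdfy4 and Tlr3 past the threshold and none at 0. The 6 CD3 complex genes summed to 1968 to 2552 CPM against 1441 to 1657, with Cd3g past the threshold. The 7 γδ T cell markers summed to 1992 to 2736 CPM against 1363 to 1499, with 0 past the threshold. The 8 NK markers summed to 102 to 141 CPM against 89.7 to 154, which overlapped. The part of these shifts in the higher NKG2 genes, the higher Klrb1f and the lower Klri1 was not tested.

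**Figure D4:**
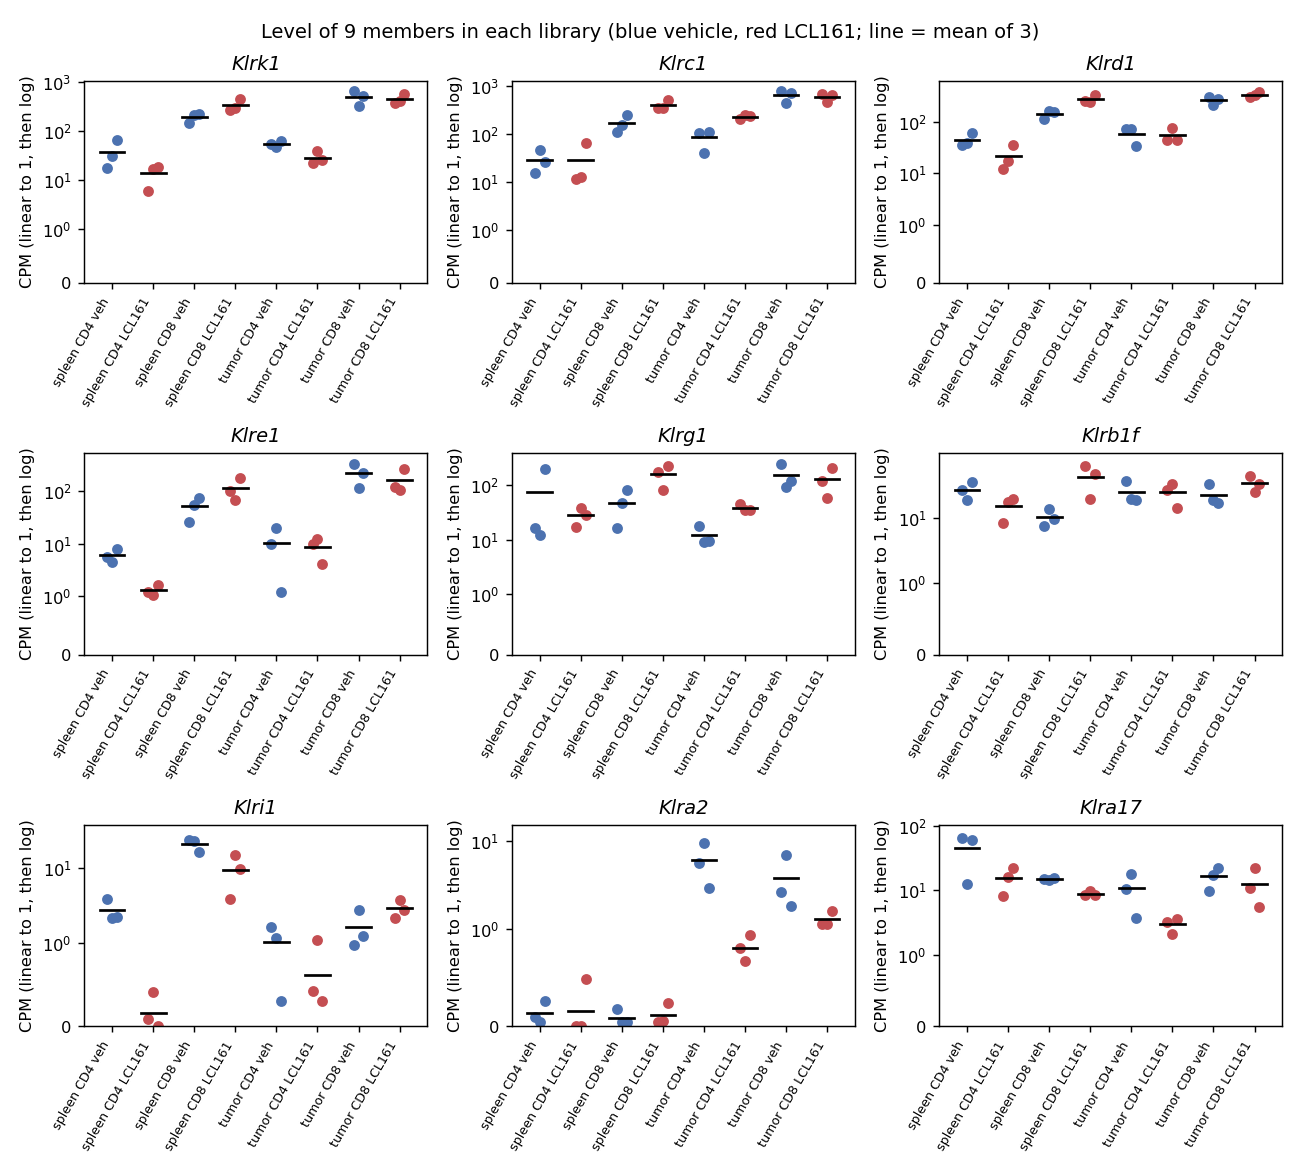
CPM of selected members in each of the 24 libraries (points) with group means (bars), by tissue, sorted population and treatment. In spleen CD8 cells the Klrb1f points with LCL161 lie above all 3 vehicle points, and in spleen CD4 cells the Klri1 points with LCL161 lie below all 3.

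In spleen CD4 cells Klri1 fell. It was 3.85, 2.15 and 2.22 CPM with vehicle and 0.0913, 0.409 and 0 with LCL161, 15.6-fold lower (log2 difference -3.97 ± 0.81, 95% interval -5.66 to -2.28, adjusted p = 0.038), where 0.193% of all genes were called lower. The LCL161 libraries held 12 counts in all, against 165 in the vehicle libraries. The call was lost without vehicle replicate 1 or 3 or LCL161 replicate 1 or 3 (adjusted p 0.053 to 0.151), and in a fit of these 6 libraries alone (0.478). With LCL161 Klri1 was 0.422, 1.11 and 0.302 CPM in tumor CD4 (-0.79 ± 0.72, adjusted p = 0.68) and 2.15, 3.79 and 2.78 in tumor CD8 (0.82 ± 0.65, adjusted p = 0.72), which overlapped vehicle in both.

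The rest of the family in spleen CD4 was mostly lower with LCL161, short of the threshold by edgeR. DESeq2 called 4 members lower, where 3.49% of the genes to which it gave an adjusted p passed: Klri1, Klrk1 (adjusted p = 0.0196), Klre1 (0.0255) and Klra3 (0.0295). The median member difference was -1.45 on the log2 scale, against 0.02 over all genes, and 8 of 26 had an unadjusted p under 0.05, where 15.9% of all genes did. Without vehicle replicate 3 the median was -0.68, with 4 such members. Klrk1 was 5.97, 16.2 and 18.2 CPM with LCL161 against 37.5 ± 24.5 (log2 difference -1.48 ± 0.43, adjusted p = 0.13). Klrd1 was 12.3, 17.7 and 35 CPM against 44.8 ± 13.6 (-1.05 ± 0.34, adjusted p = 0.16), and Klre1 was 1.19, 1.06 and 1.62 against 6.05 ± 1.75 (-2.22 ± 0.77, adjusted p = 0.18). Klrd1 and Klre1 were separate and Klrk1 overlapped at its vehicle replicate 1. Separate and lower were 6 members, where 6.91% of all genes were, namely Klra1, Klrb1a, Klrb1b, Klrd1, Klre1 and Klri1.

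The difference of Klrc1 in spleen CD4 was close to 0. It was 11.1, 12.2 and 62.6 CPM with LCL161 against 14.9, 45.2 and 26.1 with vehicle (log2 difference -0.01 ± 0.54, 95% interval -1.14 to 1.13), and LCL161 replicate 3 was the highest library of both groups. Klrc2 was 2.73, 4.37 and 14 CPM with LCL161 against 5.03, 9.91 and 10.9 (-0.29 ± 0.45, adjusted p = 0.78), and Klrc3 was 0.122, 0.143 and 0.357 against 0.307, 0.322 and 0.844 (-1.11 ± 0.45, adjusted p = 0.25). Among the LCL161 libraries each was highest in the same replicate. Klrg1 was 17.2, 38 and 28.4 CPM against 16.4, 11.9 and 197, a fitted difference of -1.43 ± 0.81 (adjusted p = 0.38), although vehicle replicates 1 and 2 were below all 3 LCL161 libraries.

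Of the NKR-P1 and Ly49 genes in spleen CD4 with LCL161, Klrb1b was 12.1, 25.3 and 27.2 CPM (-1.03 ± 0.64, adjusted p = 0.43), Klrb1f 8.4, 17.2 and 19.3 and Klrb1c 11.8, 24 and 15.3. Klrb1a was 1.3, 1.99 and 1.25 CPM against 4.41, 5.34 and 8.33 with vehicle (-2.00 ± 0.74, adjusted p = 0.21). Klra17 was 8.08, 15.9 and 22.3 CPM (-1.55 ± 0.58, adjusted p = 0.22). Klra3 was 0, 0.547 and 0.219 CPM against 0.145, 1.24 and 7.86 (-3.56 ± 1.22, adjusted p = 0.17), and Klra1 was 0.0913, 0.368 and 0.35 CPM. Klra2, Klra4, Klra7, Klra8, Klra9 and Klra10 were at or under 1.38 CPM in every library of both groups, and Klra5 and Klra6 were at 0 in all 3 LCL161 libraries.

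Markers of other cells differed between the spleen CD4 groups as well. The 7 γδ T cell markers summed to 76.5, 186 and 107 CPM with LCL161 and 950.0, 298 and 1633 with vehicle, with 5 of 7 separate and lower, Tcrg-C2 past the threshold, and Sox13 at 0 in at least 1 LCL161 library. Plasmacytoid dendritic cell markers summed to 478, 782 and 1004 and 2663, 658 and 1927 CPM, and NK markers to 32.9, 62.2 and 39.2 and 82.6, 28.5 and 203, with 0 past the threshold in either list, Khdc1a at 0 in both groups and Cma1 at 0 in all LCL161 libraries. The part of these differences in the lower family values was not tested. Nor was that of the dendritic cell markers, which are set beside Klri1 in other comparisons above and are not given for this one.

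In tumor CD4 cells 0 members passed by edgeR's quasi-likelihood test, 7 had an unadjusted p under 0.05 (14.1% of all genes), and DESeq2 called 3, where it called 4.18% of genes (Klra2, adjusted p = 0.0157, and Klra17, 0.0379, lower; Klrc2, 0.0488, higher). The signs differed among members. Klrc1, Klrc2, Klrc3 and Klrg1 were separate and higher with LCL161, 4 of 26 members where 7.19% of all genes were. Klra2, Klra17 and Klrk1 were separate and lower, 3 of 26 where 8.09% were. All 5 NKR-P1 genes and 10 of 11 Ly49 genes had negative values, with medians of -0.31 and -1.19 on the log2 scale against -0.01 over all genes. These directions rested on single libraries. Without vehicle replicate 2, 5 of 11 Ly49 genes were negative (median 0.36), and without LCL161 replicate 3, 2 of 5 NKR-P1 genes were (median 0.04).

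Klrc1 in tumor CD4 cells was 196, 246 and 235 CPM with LCL161 against 100.5, 40.2 and 108 with vehicle, 2.72-fold higher (1.44 ± 0.55, adjusted p = 0.23). Klrc2 was 39.1, 49.2 and 46.5 CPM against 20.6, 10.2 and 22.4 (1.34 ± 0.44, adjusted p = 0.17), and Klrc3 was 1.02, 1.44 and 1.24 (1.13 ± 0.39, adjusted p = 0.19). The partner Klrd1 was 43.6, 75.6 and 44.9 CPM against 71.4, 70.3 and 33.9 (-0.10 ± 0.34, 95% interval -0.81 to 0.61). Klrk1 went the other way, at 21.8, 38.2 and 24.7 CPM against 54, 46.2 and 60.8 (-0.93 ± 0.42, adjusted p = 0.33). Klrg1 was 45, 35.7 and 34.6 CPM against 17.8, 9.14 and 9.3 (1.67 ± 0.82, adjusted p = 0.37).

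The ratio of Klrc1 to Klrk1 CPM within each library shows this split. It was 8.99, 6.44 and 9.51 in tumor CD4 LCL161 and 1.86, 0.871 and 1.78 in tumor CD4 vehicle, without overlap. No library of the other 7 groups exceeded 3.43, a value of spleen CD4 LCL161 replicate 3. In CD8 libraries the ratio was 0.745, 0.724 and 1.1 in spleen vehicle, 1.27, 1.14 and 1.1 in spleen LCL161, 1.19, 1.38 and 1.36 in tumor vehicle and 1.8, 1.16 and 1.14 in tumor LCL161. As a share of the family's CPM in tumor CD4 cells, Klrc1 averaged 22.0% with vehicle and 44.1% with LCL161, and Klrk1 14.2% and 5.39%. This ratio was chosen after the values were seen and is a description with no test. Both of its genes had mostly values that were not whole, 95.8% for Klrc1 and 83.3% for Klrk1, so both sides of it are uncertain.

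**Figure D5:**
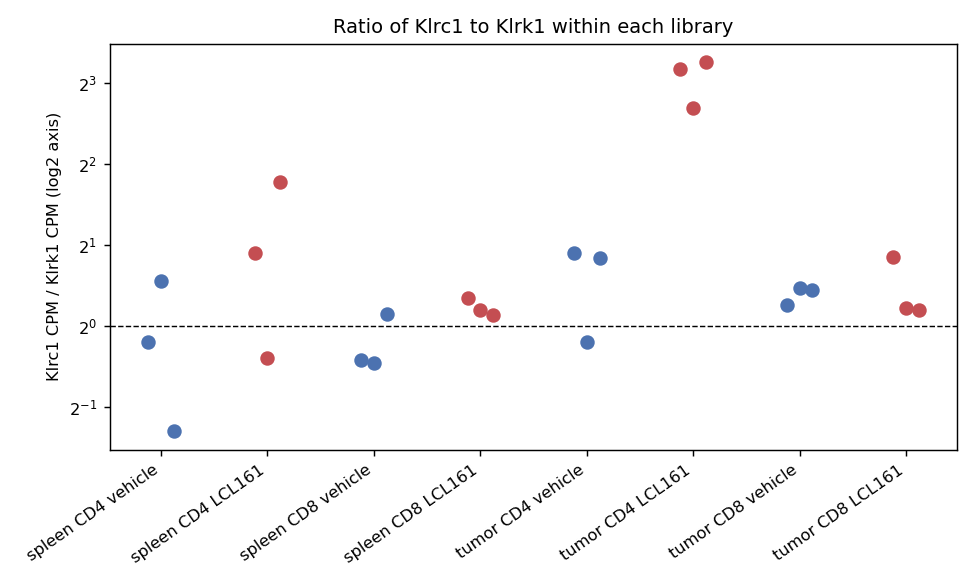
Ratio of Klrc1 to Klrk1 CPM in each of the 24 libraries (points), by group, on a log axis. The 3 tumor CD4 LCL161 libraries lie between 6.44 and 9.51, above all other libraries, which lie between 0.405 and 3.43.

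Of the members separate and lower in tumor CD4 cells, Klra2 was 0.797, 0.667 and 0.931 CPM with LCL161 against 5.55, 9.49 and 2.89 (-2.89 ± 0.80, adjusted p = 0.11) and Klra17 was 3.24, 2.11 and 3.58 against 10.4, 17.9 and 3.69 (-1.83 ± 0.61, adjusted p = 0.17). The 9 macrophage markers were also all separate and lower, at 391, 269.9 and 629 CPM against 1452, 2897 and 1114, with Csf1r past the threshold and none at 0. Their part in the Klra2 and Klra17 values was not tested. Klre1 was 9.75, 12.4 and 4.19 CPM with LCL161 and Klrb1b 30.8, 74.9 and 25.8, Klrb1c 20.3, 14.6 and 6.58 and Klrb1f 26.5, 32.5 and 14.2, all overlapping vehicle. Klra4 was 7.48, 3.89 and 5.4 CPM, Klra7 11.7, 2.75 and 2.56 and Klra8 2.14, 1.62 and 1.05, within the wide vehicle ranges given above.

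In tumor CD8 cells, where the family was most abundant, 0 members passed, 1 had an unadjusted p under 0.05 (10.7% of all genes) and DESeq2 called 0, where it called 1.78% of genes. Klrc1 was 654, 463 and 632 CPM with LCL161 (log2 difference -0.13 ± 0.53, 95% interval -1.25 to 0.99). Klrk1 was 362, 399 and 553 CPM (-0.17 ± 0.42, 95% interval -1.04 to 0.70). Klrc2 was 130.2, 103 and 131 CPM (-0.09 ± 0.43) and Klrd1 298, 319.6 and 377 (0.35 ± 0.34, adjusted p = 0.79). The lowest LCL161 library of Klrd1 (298.1 CPM) was only just above the highest vehicle library (297.8 CPM).

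Klre1 was 122, 107 and 267 CPM and Klrg1 121, 58.4 and 205 in tumor CD8 LCL161, overlapping vehicle. All 5 NKR-P1 genes had positive values, with a median of 0.91 on the log2 scale against 0.0031 over all genes. Klrb1a, the member with the unadjusted p under 0.05, was 4.48, 13.4 and 2.13 CPM against 1.02, 1.13 and 2.65 (2.04 ± 0.74, adjusted p = 0.31). Klrb1b was 57.8, 25.7 and 23.3 CPM, Klrb1c 13.8, 59.4 and 23.6 and Klrb1f 43.9, 24.9 and 33.1. Klra2 was 1.13, 1.14 and 1.57 CPM, separate and lower (-1.52 ± 0.77, adjusted p = 0.49), beside macrophage markers at 264 to 457 CPM against 618 to 942, whose part was not tested. Klra9 was 1.52, 6.03 and 10.8 CPM, Klra17 10.7, 21.7 and 5.44 and Klrc3 2.96, 3.64 and 3.55.

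The remaining Ly49 values complete the account, and 0 of these genes passed between treatments in any population by edgeR. DESeq2 called Klra3 in spleen CD4 (0.0295), and Klra2 (0.0157) and Klra17 in tumor CD4, as given above. In spleen CD8 cells Klra4 was 0.558, 0.374 and 1.36 CPM with vehicle and 0.0481, 0.712 and 0.503 with LCL161. Klra7 was 3.05, 15.9 and 2.42 CPM and 3.95, 1.29 and 4.16 in the same groups, and Klra8 was 1.5, 0.817 and 1.48 and 0.501, 2.22 and 2.89. Vehicle replicate 2 was the highest of the 6 libraries for Klra7, as it was for Klra1, Klra5 and Klra6. With LCL161 in spleen CD8, Klra5 was 3.58, 4.56 and 3.55 CPM, Klra6 3.34, 1.07 and 1.72, Klra1 0.192, 1.48 and 1.32, Klra2 0.0481, 0.0548 and 0.245, Klra3 8.05, 7.23 and 6.98 and Klra9 8.26, 8.41 and 19.

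In tumor CD8 cells the activating receptor gene Klra4 was 1.84, 1.37 and 1.35 CPM with vehicle and 0.747, 1.37 and 0.561 with LCL161, and Klra8 was 3.04, 0.731 and 0.737 and 0.546, 1.98 and 1.78. Klra7 was 4.27, 1.31 and 1.88 CPM and 1.49, 7.57 and 5.02, Klra5 4.44, 1.88 and 4.27 and 8.38, 17.5 and 2.21, and Klra6 0.631, 0.386 and 2.73 and 0.597, 3.0 and 0.435. Klra1 was 1.1, 7.21 and 0.421 CPM and Klra3 7.98, 13.2 and 3.1 with LCL161, with replicate 2 the highest for Klra1. All of these overlapped between treatments.

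In tumor CD4 cells with LCL161 Klra1 was 1.62, 0.111 and 0.0465 CPM, Klra3 0.446, 4.23 and 0.477, Klra5 0.422, 0.0278 and 0.372 and Klra9 1.21, 1.43 and 1.09. Klra6 was 0.241, 0.753 and 0 CPM with vehicle and at 0 in all 3 LCL161 libraries. In spleen CD4 with LCL161 Klra2 was 0, 0 and 0.481 CPM, Klra4 0, 0 and 0.645, Klra7 0.685, 0.102 and 0.438, Klra8 0.0274, 0.136 and 0 and Klra9 0.0548, 0.387 and 0. The 3-count floor of these 3 libraries was 0.123 to 0.137 CPM.

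Whether the LCL161 effect differed between populations was tested by the difference of the 2 effects. For spleen CD8 minus spleen CD4 0 members passed, 9 had an unadjusted p under 0.05 (12.1% of all genes), and DESeq2 called 4 (Klrb1f, adjusted p = 0.00114; Klrd1, 0.0064; Klrk1, 0.0116; Klre1, 0.0159). Of all genes, 0.292% passed by edgeR and 2.81% by DESeq2. The differences were 2.90 ± 0.63 for Klrb1f (edgeR adjusted p = 0.057), 2.00 ± 0.48 for Klrd1 (0.076), 2.27 ± 0.60 for Klrk1 (0.1) and 3.36 ± 1.00 for Klre1 (0.15). Of the members, 23 of 26 had positive differences, where 52.9% of all genes did.

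For the other 3 differences 0 members passed by edgeR or DESeq2. Between tumor and spleen CD4 cells 6 members had an unadjusted p under 0.05, as did 10.2% of all genes, and 0.00991% of all genes passed by edgeR and 0.689% by DESeq2. Between tumor and spleen CD8 cells 4 members did, as did 9.04% of all genes, and 0.0248% and 1% passed. Between CD8 and CD4 tumor cells 4 members did, as did 5.53% of all genes, and 0% and 0.166% passed. For Klrc1 the difference was 1.45 ± 0.77 between tumor and spleen CD4 (adjusted p = 0.52), -1.32 ± 0.76 between tumor and spleen CD8 (adjusted p = 0.63) and -1.57 ± 0.76 between tumor CD8 and CD4 (adjusted p = 0.9). By edgeR's test no effect of LCL161 on a member was shown to differ between tissues or gates.

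Genes that work with these receptors were followed in lists of adaptors and proximal signaling (23 genes), ligands (17 in the table, 13 tested), transcription factors of NK and effector cells (16) and other innate-type receptors (15). The lists were drawn up with earlier results of these data known. As for the receptors, differences in cell types and differences within cells cannot be told apart for these genes. In spleen CD8 cells 3 of 23 adaptor genes rose with LCL161 and 2 fell, where 8.28% of all genes passed and 4.1% rose. Hcst, the DAP10 adaptor of NKG2D, was 107 ± 7.57 CPM with vehicle and 161 ± 30.3 with LCL161 (log2 difference 0.58 ± 0.15, adjusted p = 0.021), in the comparison where Klrk1 itself missed the threshold. Inpp5d, the phosphatase SHIP1 that acts below inhibitory receptors, was 488 ± 12.5 and 261 ± 33.4 CPM (-0.90 ± 0.15, adjusted p = 0.0024). Grb2 fell by less (-0.50 ± 0.08, adjusted p = 0.0019), and Dok2 rose (0.80 ± 0.17, adjusted p = 0.0093). Of the other receptors Tigit, an inhibitory receptor for nectin-like ligands, rose from 6.48 ± 1.96 to 36 ± 16.5 CPM (adjusted p = 0.0052), and Lilrb4a rose too (1.58 ± 0.30, adjusted p = 0.0053). No ligand and no transcription factor passed. The dendritic cell markers were lower with LCL161 in these libraries, as given above, and their part in these values was not tested.

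In the other 3 populations few of these genes passed. In spleen CD4 the adaptor-bound phosphatase gene Ptpn11 (SHP-2) rose from 109 ± 30.4 to 264 ± 122 CPM (1.27 ± 0.25, adjusted p = 0.037), and 0 genes of the other lists passed. In tumor CD4 Slamf6 fell from 78.8 ± 29.1 to 21.7 ± 10.6 CPM (-1.86 ± 0.30, adjusted p = 0.023), and 0 others passed. In tumor CD8 0 genes of these 4 lists passed. H2-T23, the gene of the Qa-1 ligand of CD94 and NKG2A, differed by 0.10 ± 0.16 in spleen CD8 and 0.06 ± 0.16 in tumor CD4, where Klrc1 was higher with LCL161 (adjusted p = 0.73 and 0.91).

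Between gates and tissues more of these genes differed. In CD8 against CD4 tumor cells, where 7 receptors were higher, the transcription factor genes Eomes and Tbx21 were higher as well (2 of 16, where 1.7% of all genes were higher), Eomes at 174 ± 63.9 against 8.24 ± 6.92 CPM (4.41 ± 0.96, adjusted p = 0.012) and Tbx21 at 343 ± 71.8 against 199 ± 40.1 (0.78 ± 0.21, adjusted p = 0.042). Of the other receptors Crtam, Slamf7 and Cd160 were higher and Ncr1 was lower (-4.06 ± 0.85, adjusted p = 0.01). Cdh1, the E-cadherin ligand of KLRG1, was the 1 ligand gene to pass (1.90 ± 0.53, adjusted p = 0.049), and the adaptor genes Fyn and Vav1 were higher. In spleen 7 of 16 transcription factor genes were lower in CD8 cells and 0 higher, where 6.09% of all genes were lower and 5.32% higher, led by Gata3 (-1.55 ± 0.21, adjusted p = 0.00011), Prdm1, Tox and Tox2. There 7 of 23 adaptor genes were lower, among them Lcp2, Fyn, Dok2 and Sh2d1a, and 1 was higher (Inpp5d), beside 2 higher and 4 lower genes among the other receptors and 0 ligands.

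In tumor against spleen CD8 cells 5 of 13 tested ligand genes were higher and 0 lower, where 7.95% of all genes were higher and 6.86% lower. They were Raet1d, a ligand of NKG2D, at 0.703 ± 0.239 against 0.0115 ± 0.0112 CPM (adjusted p = 0.0023), B2m (0.68 ± 0.13, adjusted p = 0.0021), Cdh1 (1.99 ± 0.53, adjusted p = 0.015), Clec2i, the gene of Clr-g (0.62 ± 0.18, adjusted p = 0.022), and H2-K1. Among the 23 adaptor genes 6 were higher and 2 lower. Hcst was higher (0.58 ± 0.15, adjusted p = 0.011) together with Klrk1, as were Dok2 and Lcp2, while Syk and Plcg2 were lower. Gata3, Prdm1, Bcl11b and Zfp683 were the 4 transcription factor genes to pass, all higher, and 5 of the other receptors were higher. In the same tumor libraries the dendritic cell markers were lower and the T cell markers higher, and their part in these values was not tested.

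In tumor against spleen CD4 cells 7 of 23 adaptor genes were lower and 0 higher, where 6.78% of all genes were lower and 9.61% higher, with Fyn, Syk, Ptpn11 and Sh2d1a at the smallest adjusted p. Raet1d was 1.14 ± 0.514 CPM in tumors against 0.00879 ± 0.0152 in spleen (adjusted p = 0.0014) and Raet1e 1.47 ± 0.926 against 0.017 ± 0.0148 (adjusted p = 0.0063), both at the limit of detection in spleen, and Cdh2 was lower. Id2 was higher (1.08 ± 0.26, adjusted p = 0.0081), and Tox and Eomes were lower. Of the other receptors 4 were higher, led by the Fc receptor gene Fcgr3 (4.89 ± 0.58, adjusted p = 2.9e-05), and 2 were lower. These are vehicle libraries that also served the comparison of gates. Macrophage markers were higher in the same tumor CD4 libraries, as given above, and their part in the Fcgr3 value was not tested.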

How the data were processed

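RNA was measured in 24 libraries of sorted cells. The submitters' processing notes name cutadapt, the aligner STAR 2.7.3a and the build GRCm38. The authors deposited expected counts per gene for 55025 symbols, of which 52.7% of the non-zero values were not whole. Not given in the sources used here: counting tool, annotation and strand setting. All columns were matched to samples by title.

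Values were rounded and tested with edgeR 4.0.16 in R 4.3.3: filterByExpr (minimum count 10, 20174 genes kept), TMM scaling (factors 0.939 to 1.05), and 1 robust quasi-likelihood fit with 8 group means (16 residual degrees of freedom, common coefficient of biological variation 0.326). Adjusted p-values are Benjamini-Hochberg over all genes tested in each of 12 contrasts, with a threshold of 0.05. Fold changes with LCL161 libraries in place of vehicle came from the same fit. Intervals for ratios of summed counts are exact 95% intervals and cover counting error only. CPM used the unrounded values. Positions, exon lengths and shared 50-base words came from GENCODE M21 on GRCm38, and promoters from RefSeq.

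The members, gene lists and marker lists were chosen with earlier results of these data known. Named with values per library are the members past the threshold in at least 1 contrast and a panel chosen by role. Of other lists, up to 4 genes with the smallest adjusted p are named in a contrast. Alternatives were RLE scaling, library totals only, no filter, 5 CPM or more in 3 libraries, DESeq2 1.42.0, a replicate block, the compared libraries alone, LCL161 libraries in place of vehicle, and leaving out each library. The statistics were checked on simulated counts for LCL161 against vehicle in spleen CD8 only. The simulation gave every gene the same spread and had no outlying library, so it cannot speak for calls that rest on single libraries. All replicate pairs differed by more than counting error, so each library counts once.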

Additional observations from a re-analysis of the deposited data

How the results depend on the processing

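Alternative values were taken for each member log2 fold change with an unadjusted p under 0.05 in the main fit, called or not. Of these values, 1238 kept direction and side of the threshold, 86 lost a call, 44 gained one and 5 changed sign. Many of the 1238 belong to effects that were not called and stayed so, and only called effects could lose a call. The 1238 therefore do not measure how stable the calls were. Of the counts of members called, 159 stayed within 1.5 times and 25 did not. The cause was not tested for any of these. LCL161 against vehicle called 1 member in spleen CD4, against 4 with DESeq2, 0 with the compared libraries alone and 0 to 1 when a library was left out. In spleen CD8 it called 1, against 4 with the compared libraries alone and 0 to 2. In tumor CD4 it called 0, against 3 with DESeq2 and 0 to 0. For the difference of effects between spleen CD8 and CD4 the count was 0, against 1 with the filter of 5 CPM, 4 with DESeq2 and 0 to 3 (3 without spleen CD4 LCL161 replicate 3). Tumor against spleen CD4 called 7, against 1 with the compared libraries alone and 3 to 6, and CD8 called 6, against 2 in LCL161 libraries and 2 to 6. CD8 against CD4 called 11 in spleen (9 to 11 when a library was left out, 16 with DESeq2, 15 in LCL161 libraries) and 7 in tumors (6 to 7, and 5 in LCL161 libraries). Over all genes, LCL161 against vehicle called 87 in spleen CD4 (628 with DESeq2, 49 with no filter, 56 with a replicate block, 0 with the compared libraries alone, 0 to 220 when a library was left out), 1670 in spleen CD8 (2529 with DESeq2, 990 with no filter, 246 to 1702), 65 in tumor CD4 (725 with DESeq2, 26 with no filter, 107 with the filter of 5 CPM, 0 with the compared libraries alone, 0 to 375) and 50 in tumor CD8 (285 with DESeq2, 241 with the compared libraries alone, 4 to 42). With DESeq2 the 4 differences of effects called 138, 180, 506 and 40 genes, against 2, 5, 59 and 0, in the order CD4 and CD8 tumor minus spleen, then spleen and tumor CD8 minus CD4. With the compared libraries alone, tumor against spleen called 885 against 3307 in CD4 and 5783 against 2986 in CD8, and CD8 against CD4 in tumors called 139 against 821 (1579 with DESeq2). Sign changes were Klra2 in the difference of effects between tumor and spleen CD4 (-3.12; -3.94 to 1.68 when a library was left out, the last without spleen CD4 LCL161 replicate 3, adjusted p = 0.572) and, with LCL161 in place of vehicle libraries, Klrg1 (0.46, 0.723) and Klri1 (1.76, 0.151) in tumor against spleen CD4, Klrb1f in tumor against spleen CD8 (-0.33, 0.704) and Klrb1f in CD8 against CD4 spleen (1.51, 0.0254). With a replicate block, counts over the 12 contrasts were 1, 1, 0, 0, 0, 0, 0, 0, 5, 5, 9 and 7. The block ended the calls of Klra7 (0.0547) and Klrg1 (0.0846) in tumor against spleen CD4, Klre1 (0.051) in tumor against spleen CD8, and Klra6 (0.0666) and Klrb1f (0.0658) in CD8 against CD4 spleen, but the samples share only a number: of 28 pairs of groups, every same-numbered correlation was over 0.1 only for spleen and tumor CD8 LCL161 (0.112, 0.124 and 0.166).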
